A study of Mus musculus with 10 samples.

Results

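The genes described here decide whether a neuron can make, load or recover the transmitters glutamate, GABA and glycine. They are Slc17a6, Slc17a7, Slc17a8, Slc32a1, Gad1, Gad2, Slc6a5 and Slc6a9, and they were taken by name from the 48975 genes that had counts. No cut on their levels was used, but the list was chosen with earlier results of these data known. All 8 were present in the count files, and 6 of them passed the filter on low counts that left 17840 genes for testing. Slc32a1 and Slc6a5 did not pass and are described by their values only.

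The RNA came from cells of the mouse spinal cord at e10.5 that were sorted by FACS for a yellow fluorescent protein (YFP). Both groups carried Olig2-Cre+/- and Rosa26R-YFP+/-, so that Cre made in the Olig2 lineage, which gives rise to motor neurons, also switched on the reporter. The 5 control samples were Oc1+/Flox and Oc2+/Flox and thus had 1 floxed copy of each Onecut gene, whereas the 5 cdKO samples were Oc1-/Flox and Oc2-/Flox (cdKO, conditional double knockout). According to the study, the reporter also labels V3 interneurons, a ventral population of glutamatergic cells, so the sort is not limited to motor neurons. The labels do not say whether replicates were separate embryos or pools, and p-values therefore measure only the spread between these samples.

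Glutamate is loaded into synaptic vesicles by the transporters Vglut2, Vglut1 and Vglut3, the products of Slc17a6, Slc17a7 and Slc17a8. GABA is made from glutamate by the decarboxylases Gad67 and Gad65, encoded by Gad1 and Gad2, and both GABA and glycine enter vesicles through the transporter encoded by Slc32a1. Glycine is gathered into inhibitory terminals by the transporter GlyT2, encoded by Slc6a5, whereas GlyT1, encoded by Slc6a9, removes glycine from the extracellular space and is found in glia, progenitors and some neurons. Motor neurons use acetylcholine, and at this stage most spinal interneurons have only begun to differentiate.

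The files held whole-number counts on 425461 exon bins, with totals of 63932395 to 107709534 per control sample and 72315782 to 84249157 per cdKO sample. These totals count overlaps of reads with bins, since a read that crossed several bins was counted on each of them, and a bin of 4 bases in Slc6a9 held up to 16 counts. A count of 3, used as the floor below which a gene is treated as not detected, corresponded to 0.0288 to 0.0591 CPM (the usual scaling of counts to sequencing depth, here with TMM factors), and such limits cover counting error only. A pair of samples stood apart. The cdKO replicate 5 had counts on 198569 bins where the other cdKO samples had 254982 to 264487, and control replicate 5 had the fewest among controls with 243970. In the control samples the first exon of Onecut1 held 125, 80, 205, 210 and 63 counts, and in the cdKO samples 0, 17, 0, 3 and 0. Onecut3 had 29 to 68 counts in controls and 0 to 3 in cdKO. The markers of motor neurons summed to 539 to 779 CPM in controls and 404 to 922 CPM in cdKO, and all 9 of them passed the filter. Of these, 5 had fold changes above 0 and 4 below. Isl1 was at 225 ± 80.5 CPM in control and 127 ± 32.9 CPM in cdKO (SD, n = 5 each; log2 fold change -0.82, SE 0.31, edgeR adjusted p = 0.938). It was the 1 marker of the 9 with an unadjusted p under 0.05, where 4.99% of all genes did, and the groups overlapped.

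Short stretches of sequence are shown for the places in 2 members where the exon counts or the promoter can be read against the annotation. Gad1, which lies at chr2:70553072-70602014 (GRCm38, plus strand), has an exon that starts at chr2:70584420 in 3 of its 8 annotated GENCODE M21 transcripts. The bin of 80 bases at chr2:70584420-70584499 was counted for it, and where the exon ends in each transcript was not compared. This exon is known from embryonic tissue and ends the reading frame early, so that this frame encodes a truncated protein in place of full-length Gad67. The stretch at chr2:70584427-70584456 is given from the GENCODE transcripts, with the in-frame stop codon in capitals.

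Gad1 embryonic exon: gacatgagggagtgttggttgctacggTGA

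Slc6a9 has 3 starts in RefSeq, at chr4 positions 117835258, 117849350 and 117855547 on the plus strand (GRCm38.p6). Windows from 250 bases before to 50 bases after each start were searched on both strands for ATTGAT and ATTGAC, which hold the core bound by Onecut proteins. The first stretch lies at chr4:117835092-117835121 upstream of the most 5′ start and the second at chr4:117849290-117849319 upstream of the middle start, with the match in capitals.

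Slc6a9 most upstream start: gggttcgtgaggATCAATcatcagaaaact

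Slc6a9 middle start: gaggtgaaagtaATTGACgctgcccagccc

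The window of the third start held neither. ATTGAT was in 2 of the 13 windows of the 8 members, the other being a downstream start of Slc17a8, and in 7.54% of all 32851 windows. ATTGAC was in 1 of the 13 windows and in 6.27% of all windows. Another form, ATCGAT, was in none of the 13 and in 0.925% of all windows. The matches describe letters only and say nothing of binding.

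No member passed the test of cdKO against control. By edgeR's quasi-likelihood test, 0 of the 6 members tested had an adjusted p under 0.05, against 0.0% of all 17840 genes, and none had an unadjusted p under 0.05, against 4.99% of all genes (890 genes, 745 higher and 145 lower in cdKO). With library size as the only scaling, 60.2% in place of 83.7% of the genes with such a p were higher, and the centre of all log2 fold changes lay at -0.15 in place of -0.02. This lean depended on the samples and on the test. Without cdKO replicate 5 it turned to 109 higher and 319 lower, and without replicate 5 of both groups it was 160 higher and 272 lower. With all samples kept, limma-voom gave 164 higher and 159 lower, and 839 higher and 693 lower with sample weights. The values of cdKO and control overlapped for all 8 members, whereas 0.409% of the genes tested had groups that did not overlap. Across the 6 members, 5 fold changes were above 0 and 1 was below, with a median log2 fold change of 0.21 beside -0.02 over all genes. With library size as the only scaling 3 were above and 3 below 0, with a median of -0.01 beside -0.15. Without replicate 5 of both groups 2 were above and 4 below 0, with a median of -0.23. The same test did not call the targeted genes either. Onecut3 had a log2 fold change of -5.08 (edgeR, adjusted p = 0.111) and Onecut1 of -1.11 (adjusted p = 0.938). That no member was called is therefore no sign that the members were unchanged. Only the interval of each gene says how large a change these samples could have hidden, and the intervals were wide. In sorted bulk RNA, fewer cells of a type and less RNA per cell cannot be told apart.

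**Figure D1:**
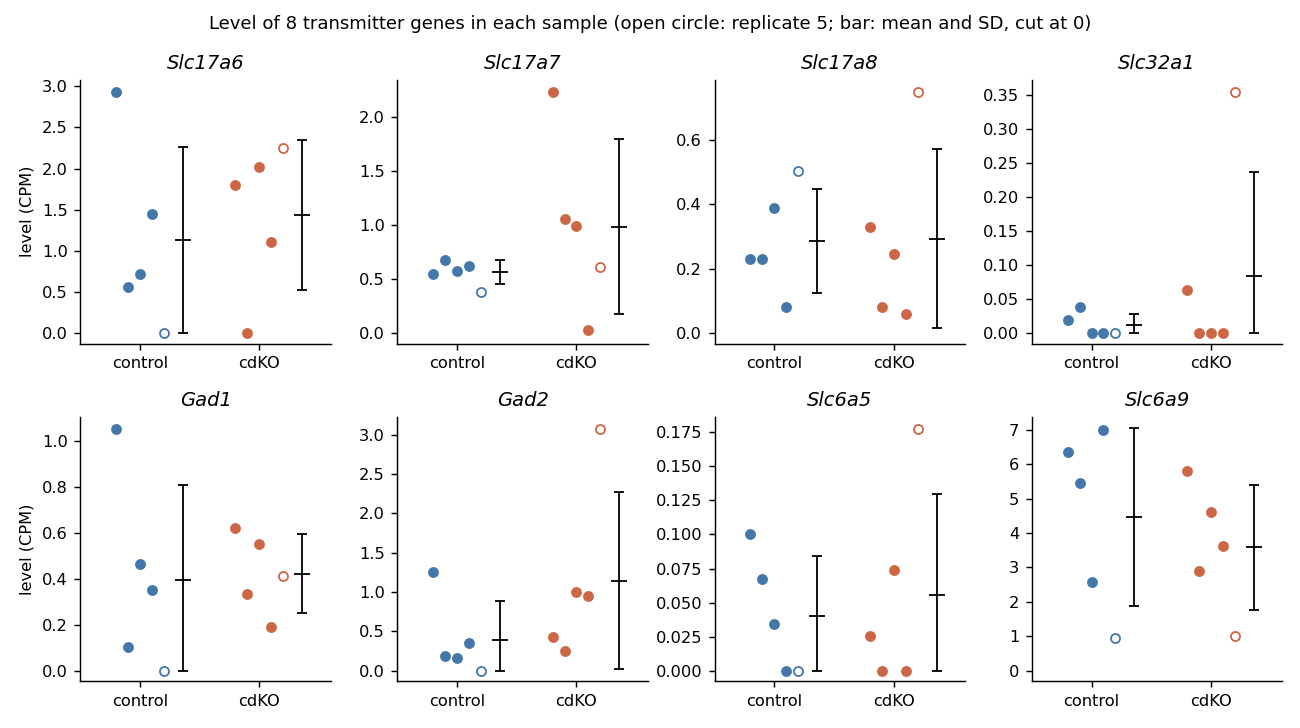
Level of each member in each sample, in CPM on a linear axis whose range differs between panels, with control samples in blue, cdKO samples in orange, open circles for replicate 5 of each group and bars for the mean and SD. The groups overlap in all 8 panels, and the highest cdKO value of Slc17a8, Slc32a1, Gad2, Slc6a5 and Slc17a6 is the open circle of replicate 5.

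Slc17a6, the gene of Vglut2, is the usual mark of glutamatergic spinal interneurons and lies at chr7:51622006-51671119 (plus strand). In control replicates 1 to 5 its level was 2.93, 0.566, 0.716, 1.45 and 0 CPM, and in cdKO replicates 1 to 5 it was 1.80, 0, 2.01, 1.11 and 2.24 CPM. The highest value was thus a control, each group had 1 sample with no count at all, and the ranges overlapped nearly from end to end. The means were 1.13 ± 1.13 CPM in control and 1.43 ± 0.907 CPM in cdKO (SD, n = 5 each). The log2 fold change was 0.34 with an SE of 1.08 and a 95% confidence interval from -1.99 to 2.66 (edgeR, adjusted p = 0.998). The exact two-sided permutation test over all arrangements of the 10 samples gave p = 0.619. A count of 0 in control replicate 5 allowed a level of up to 0.0443 CPM, and in cdKO replicate 2 of up to 0.0357 CPM.

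The exon bins of Slc17a6 showed how different these samples were. In controls 1 to 4, counts lay on 14 to 19 of its 20 bins, and in cdKO 1, 3 and 4 on 14 to 16 bins. In cdKO 5, 95 of 114 counts (83.3%) lay on the last bin and only 4 bins had any. The share of the last bin was 13.6 to 24.4% in the other samples with counts. Without both replicates 5, the log2 fold change of Slc17a6 was -0.22 (SE 0.96), the opposite sign of the value with all samples, and the exact permutation p was 0.771 over 70 arrangements.

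Slc17a7, the gene of Vglut1, lies at chr7:45163949-45176142 (plus strand) and in the adult marks mostly cortical neurons and sensory afferents. In the controls it was at 0.552, 0.681, 0.580, 0.624 and 0.384 CPM, the tightest spread for its mean among the 6 members tested. The cdKO samples had 2.23, 1.06, 0.995, 0.0358 and 0.610 CPM, so that 3 of 5 were above every control and 1 was below every control. With means of 0.564 ± 0.112 and 0.987 ± 0.808 CPM (SD, n = 5 each), the log2 fold change was 0.81 (SE 0.69, 95% interval -0.67 to 2.28, edgeR adjusted p = 0.996). The exact permutation p was 0.50, and with 1 sample left out it ran from 0.0238 without cdKO replicate 4, which had 3 counts of Slc17a7 on 3 bins, to 0.960 without cdKO replicate 1. Without cdKO 1, the sample with the highest level, the log2 fold change was 0.26.

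Slc17a8, the gene of Vglut3, lies on the minus strand at chr10:89574020-89621253. Its level was 0.0813 to 0.502 CPM in controls and 0.0596 to 0.748 CPM in cdKO, with medians of 0.231 and 0.246 CPM. Both highest values came from replicate 5, and in cdKO 5 all 38 counts lay on the 3′-most bin. The log2 fold change was 0.02 (SE 0.71, 95% interval -1.52 to 1.55, edgeR adjusted p = 1.0), and its sign turned in 11 of 20 alternatives. No direction can be given for this gene.

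Gad2, which encodes Gad65, had the largest fold change of the 6 members tested and lies at chr2:22622205-22693874 (plus strand). The control samples had 1.25, 0.192, 0.159, 0.353 and 0 CPM. The cdKO samples had 0.432, 0.250, 1.01, 0.954 and 3.07 CPM. Control 1 lay above 4 of the 5 cdKO samples, and cdKO 5 lay above all others, so that each group held 1 value far from its rest. The means were 0.392 ± 0.498 CPM in control and 1.14 ± 1.13 CPM in cdKO (SD, n = 5 each), and the log2 fold change of 1.53 had an SE of 0.95 and a 95% interval from -0.51 to 3.57 (edgeR, adjusted p = 0.964). The exact permutation p was 0.151.

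The value of Gad2 rested on replicates that stood apart. Without both replicates 5, its log2 fold change was 0.41 (SE 0.70, exact permutation p = 0.514). With 1 sample left out the exact permutation p ran from 0.0397 without control 1 to 0.278 without either replicate 5, none of them adjusted for the 8 members, and the log2 fold change from 0.73 without cdKO 5 to 2.67 without control 1. In cdKO 5 the counts of Gad2 fell on the ends of the gene. The first 5 bins held 121 of 156 counts, bins 6 to 15 held 0, and the last bin held 31. A similar gap was seen in cdKO 1, where all 34 counts lay on the first 5 bins, and in control 3, where 13 of 14 did. In controls 1, 2 and 4 and in cdKO 2 to 4, bins 6 to 15 held 19.2 to 57.1% of the counts.

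Gad1, which encodes Gad67, was measured at 1.05, 0.105, 0.466, 0.353 and 0 CPM in the controls and 0.622, 0.333, 0.553, 0.191 and 0.414 CPM in cdKO. All 5 cdKO values lay between the lowest and highest control. The means were 0.396 ± 0.412 and 0.422 ± 0.172 CPM (SD, n = 5 each), with a log2 fold change of 0.09 (SE 0.85, 95% interval -1.73 to 1.91, edgeR adjusted p = 0.998) and an exact permutation p of 0.690. Under scaling by library size alone the log2 fold change was -0.10. In cdKO 5 all 21 counts lay on bin 31 of 32 near the 3′ end, which held 0 to 22.9% of Gad1 counts in the other samples that had any.

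The embryonic exon of Gad1 shown above held 1, 3, 1 and 1 counts in controls 1 to 4 and 3, 2, 0, 0 and 0 in cdKO 1 to 5, or 11 counts in all. It made up 8.63 ± 12.5% of Gad1 counts in the 4 controls with counts and 2.65 ± 3.65% in the 5 cdKO samples, and the exact permutation p of that difference was 0.381 over 126 arrangements. Counts on this exon were thus found in both groups, and a difference was not detectable at this depth.

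Slc32a1, the gene of the vesicular GABA and glycine transporter, is the single gene that marks both kinds of inhibitory terminal and lies at chr2:158610767-158615748 (plus strand). It had 2 and 4 counts in controls 1 and 2 and 0 in the other controls. In cdKO it had 5 counts in replicate 1, 18 in replicate 5 and 0 in the rest. Of all its counts, 24.1% lay on the bin it shares with the antisense gene Gm14205, and without strand these genes cannot be separated. The exact permutation p was 0.444, and with both replicates 5 left out it was 1.0.

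Slc6a5, the gene of GlyT2, lies at chr7:49910146-49963856 (plus strand). It had 10, 7, 3, 0 and 0 counts in the controls and 2, 0, 6, 0 and 9 counts in cdKO, and no sample was above 0.177 CPM. The control counts lay on bins 1 to 5. All 6 counts of cdKO 3 and all 9 of cdKO 5 lay on the 3′-most bin, and bins 6 to 20 held none in any sample. The exact permutation p was 0.810. Slc32a1 and Slc6a5 were therefore at or under the floor of 3 counts in 7 and 6 of the 10 samples.

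**Figure D2:**
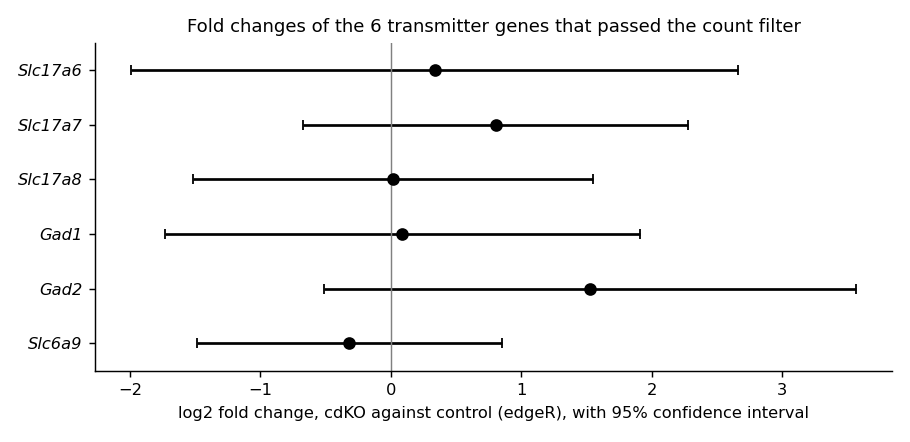
Log2 fold change of cdKO against control from edgeR (points) with 95% confidence intervals (bars) for the 6 members that passed the count filter, with the vertical line at 0. All 6 intervals include 0, and the widest are those of Slc17a6 (-1.99 to 2.66) and Gad2 (-0.51 to 3.57).

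Slc6a9, the gene of GlyT1, was the most abundant member and lies at chr4:117834506-117875198 (plus strand). The controls had 6.35, 5.46, 2.57, 7.0 and 0.960 CPM and the cdKO samples 5.79, 2.89, 4.61, 3.62 and 1.0 CPM. The lowest value of each group was replicate 5, and the remaining samples of both groups lay between 2.57 and 7.0 CPM. Means were 4.47 ± 2.59 and 3.58 ± 1.81 CPM (SD, n = 5 each), with a log2 fold change of -0.32 (SE 0.54, 95% interval -1.49 to 0.85, edgeR adjusted p = 0.996) and an exact permutation p of 0.706. A part of these counts, 22.1%, lay on 9 of its 43 bins that also belong to Gm17114, Ccdc24 or B4galt2. In cdKO 5, 27 of 51 counts lay on a single bin shared with B4galt2 and Ccdc24.

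The bins also separate the starts of Slc6a9. The exons used only by transcripts from the most upstream starts held 151 counts, of which 111 were in controls and 40 in cdKO, on 7 bins that belong to no other gene. These counts made up 5.69, 6.14, 4.87, 5.62 and 0% of Slc6a9 counts in the controls and 3.51, 2.47, 2.67, 2.63 and 0% in cdKO. Leaving aside replicate 5 of each group, every control lay above every cdKO sample. With all 10 samples the means were 4.46 ± 2.54% and 2.26 ± 1.32% (SD, n = 5 each), and the exact permutation p was 0.159, or 0.476 after adjustment over the 3 exon shares tested.

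The 2 samples at 0 had no count on any Slc6a9 bin from the upstream starts to bin 25. Leaving out both of them was chosen after seeing the data. The shares were then 5.58 ± 0.528% and 2.82 ± 0.468% (SD, n = 4 each). The exact permutation p was 0.0286, the smallest that 70 arrangements can give, and 0.0857 after adjustment over 3 shares. Without control 5 alone, with cdKO 5 kept at 0%, the exact permutation p was 0.00794 (adjusted 0.0238), and without cdKO 5 alone it was 0.286. Dropping the 0% of a single group moves the difference by itself, so neither value can decide whether the groups differ. The same counts were also set against 3 bins just downstream, which belong to transcripts from each of the starts. There the upstream exons held 34.3, 43.2, 42.3 and 39.7% in controls 1 to 4 and 30.8, 19.4, 20.4 and 23.5% in cdKO 1 to 4, and neither replicate 5 had a value. The groups did not overlap, with an exact permutation p of 0.0286 (adjusted 0.0857), again the smallest that 70 arrangements can give. How often exon shares of other genes part these samples in the same way was not measured, so the separation cannot be weighed.

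These shares rest on few reads, since the bin with most counts among these exons held 14, 13, 5 and 11 counts in controls 1 to 4 and 6, 3, 6 and 3 in cdKO 1 to 4. The middle start, whose upstream stretch with ATTGAC is shown above, had 15 counts on its own exon in controls and 8 in cdKO. Its share was 0.506 ± 0.582% in control and 0.503 ± 0.403% in cdKO (SD, n = 5 each, exact permutation p = 1.0). The exons of the third start held 0 counts in all 10 samples.

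**Figure D3:**
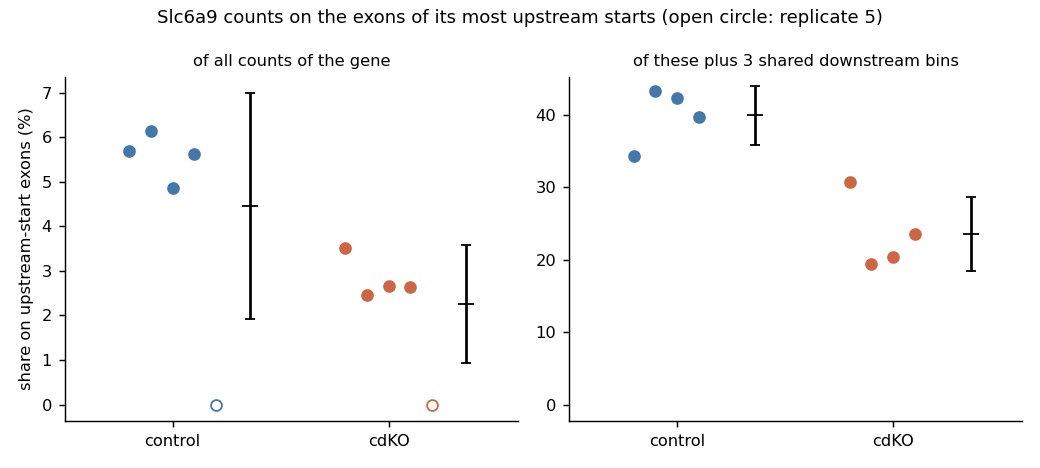
Share of Slc6a9 counts on exons used only from its most upstream starts, in percent of all counts of the gene (left) and of those exons plus 3 shared bins downstream (right), for each sample, with replicate 5 as open circles and bars for the mean and SD. In replicates 1 to 4 the controls lie at 4.87 to 6.14% and the cdKO samples at 2.47 to 3.51% on the left, and at 34.3 to 43.2% and 19.4 to 30.8% on the right, where replicates 5 have no value.

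**Figure D4:**
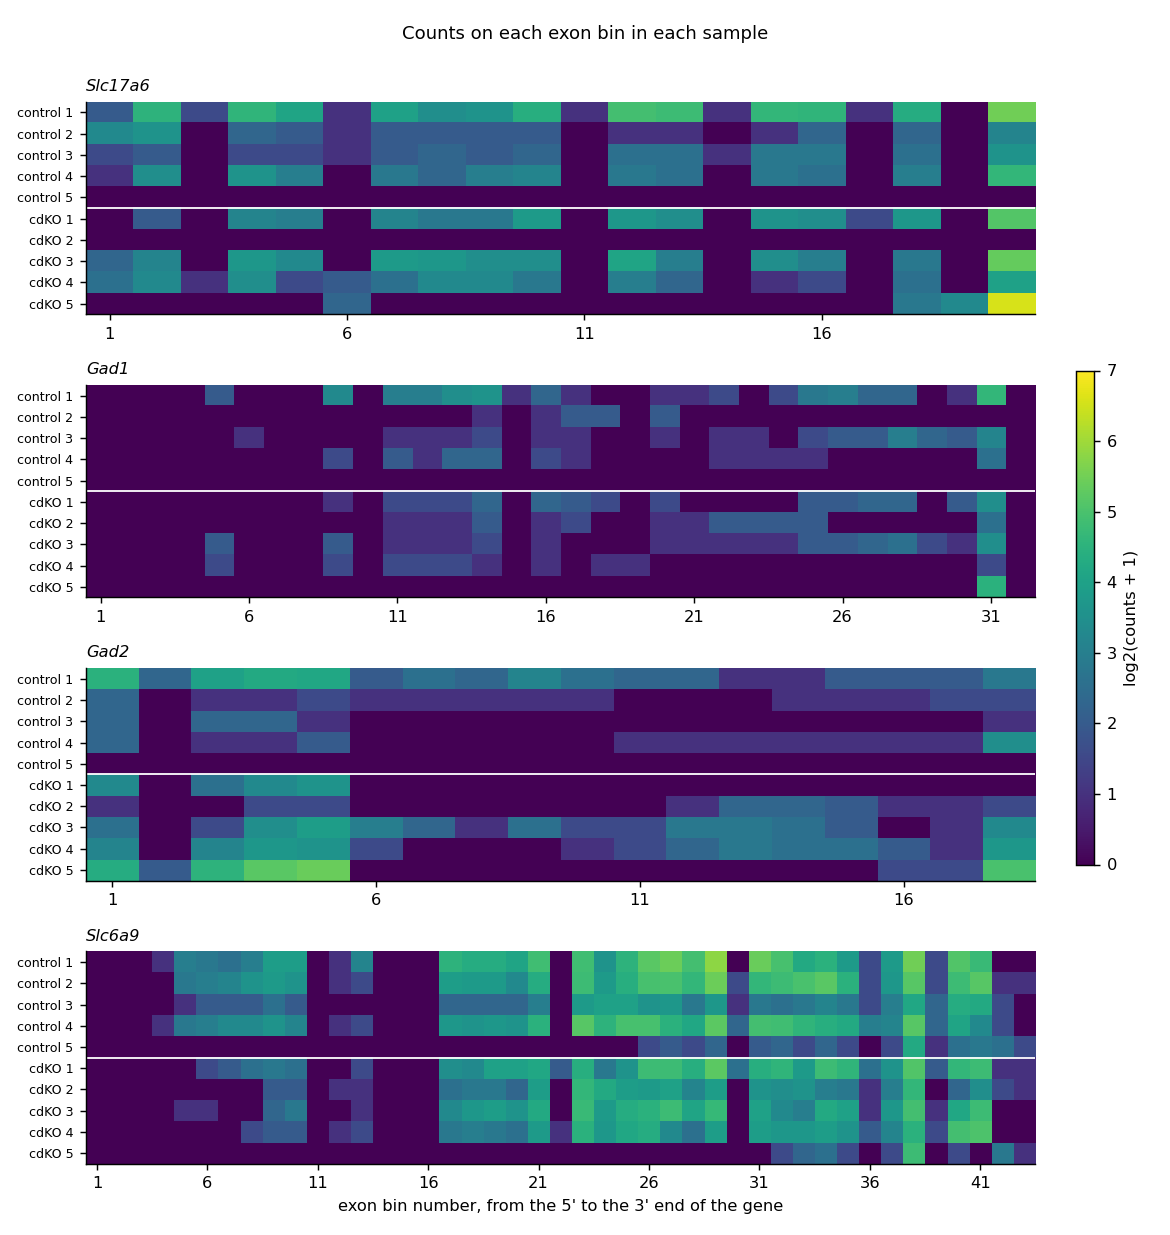
Counts on each exon bin of Slc17a6, Gad1, Gad2 and Slc6a9 in each of the 10 samples, as log2(counts + 1) by colour, with bins numbered from the 5′ to the 3′ end and a white line between control and cdKO. Control 5 is empty for Slc17a6, Gad1 and Gad2, and cdKO 5 has counts on the 3′ end only of Slc17a6, Gad1 and Slc6a9 apart from 1 bin of Slc17a6.

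To compare genes with each other, levels were divided by the length of their bins and are given as CPM per kb, averaged over all 10 samples. Slc6a9 came first at 0.783, followed by Slc17a6 at 0.238, Slc17a7 at 0.144, Gad2 at 0.131, Slc17a8 at 0.0614, Gad1 at 0.0535, Slc32a1 at 0.0170 and Slc6a5 at 0.00663. The 7 neighbouring pairs were taken from this order and tested on the same values, so their p-values are a description only. Of these pairs, only Slc6a9 and Slc17a6 had an adjusted p under 0.05. Slc6a9 was higher in 9 of 10 samples (exact sign-flip permutation test on log2(CPM per kb + 0.05), p = 0.00391, or 0.0273 adjusted over 7 pairs). The step from Gad1 to Slc32a1 was seen in 8 of 10 samples (exact permutation p = 0.0195, adjusted 0.0684), and the other 5 pairs had exact p-values from 0.246 to 0.721. Because a read is counted on each bin it crosses, genes with many short bins such as Slc6a9 gain counts. When each bin was lengthened by the read length less 1 base to allow for this, Gad2 and Slc17a7 changed places and the other members kept theirs. On that scale Slc6a9 was at 0.349 and Slc17a6 at 0.153 CPM per kb, and this difference was not tested.

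The levels lay in the lower part of the genes tested. Slc6a9 exceeded 31.1% of the 17840 genes tested, Slc17a6 14.9%, Slc17a7 9.57%, Gad2 8.63%, Slc17a8 3.15% and Gad1 2.52%. By contrast Slc18a3, the vesicular acetylcholine transporter of motor neurons, stood at 37.6 CPM per kb and exceeded 89.1% of genes. In all 10 samples it was above Slc17a6 and above Slc6a9, with ratios of the means of 158 and 48.1 on bins that were not lengthened. The other cholinergic genes were lower. Chat, which makes acetylcholine, was at 2.65 CPM per kb and exceeded 50.6% of genes. Ache, which breaks it down, was at 0.726 (29.9%), and Slc5a7, the choline transporter, at 0.404 (21.9%). Both were below the mean of Slc6a9 on bins that were not lengthened, and the cholinergic genes were not put on the lengthened scale. The order did not hold in every sample. Ache was above Slc6a9 in cdKO 1, 3 and 5 and below it in the others, and Slc5a7 was above it in cdKO 5 only. Of these 4 cholinergic genes 0 were called by edgeR, and their median log2 fold change was 0.23, or -0.03 with 2 above and 2 below 0 without replicate 5 of both groups, and -0.05 without control 5 alone.

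**Figure D5:**
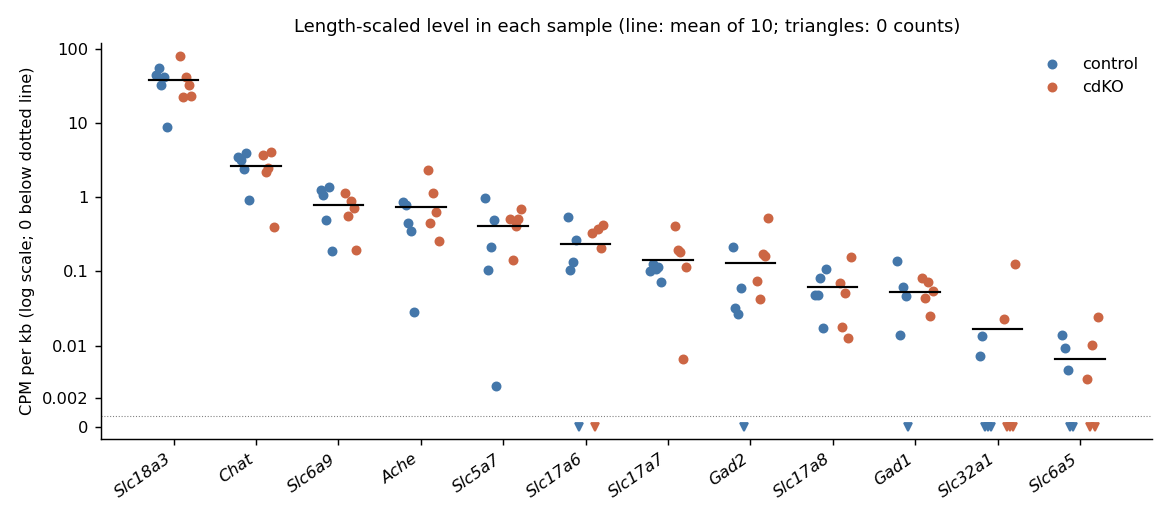
Level of the 8 members and 4 cholinergic genes in each sample, in CPM per kb of exon bins on a log axis, with controls in blue, cdKO in orange, black lines for the mean of 10 samples and triangles under the dotted line for samples with 0 counts. Slc18a3 has a mean of 37.6, Slc6a9 of 0.783 and Slc17a6 of 0.238, and the lowest are Slc32a1 and Slc6a5 with 6 and 4 samples at 0.

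Some of the members varied together over the samples. Over the 10 samples on log2(CPM + 0.5), Pearson's r was 0.75 between Slc17a6 and Gad2 and 0.73 between Slc17a6 and Gad1, and it was -0.68 between Slc17a8 and Slc6a9. These values are descriptions only, since the points share their libraries and 2 of them stand apart in coverage. Among 8546 genes with a mean of at least 10 CPM, the 3 most like Gad2 were Fabp7, a fatty acid binding protein of radial glia (r = 0.96), Slc25a4 (r = 0.95) and Celf4 (r = 0.94). The 3 most like Slc17a6 were Syt4, a synaptotagmin (r = 0.93), Tes (r = 0.91) and Dcn (r = 0.90). For Slc6a9 they were Fam174b, Adam11 and Fbrsl1 with r from 0.95 to 0.96, and for Gad1 they were Stx7, Tmeff2 and Enpp2 with r from 0.79 to 0.80. Slc17a7 was most like Ankrd52, Oplah and Ccdc71, and Slc17a8 most like Pdzph1, Slc50a1 and Alad.

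The genes that supply, recycle or break down the transmitters were given as lists. Of 15 genes of glutamate metabolism and uptake all were tested, 0 were called by edgeR and 4 had fold changes above 0, with a median log2 fold change of -0.11 beside -0.02 over all genes. Without cdKO 5 the count above 0 was 8 of 15 with a median of 0.08, and without replicate 5 of both groups it was 9 of 15 with a median of 0.04. Of the 15, 1 gene, Slc1a2, the glial glutamate transporter, had an unadjusted p under 0.05, where 4.99% of all genes did. It was at 11.3 ± 3.61 CPM in control and 6.38 ± 2.80 CPM in cdKO (SD, n = 5 each; log2 fold change -0.83, SE 0.36, edgeR adjusted p = 0.938). Its exact permutation p was 0.0476, and the groups overlapped. At the other end of the list Slc1a6, a glutamate transporter best known from the cerebellum, had a log2 fold change of 1.02 (SE 0.85) and Slc1a1, a neuronal glutamate transporter, of 0.93 (SE 0.56). Slc38a2, a glutamine carrier, stood at 199 ± 109 CPM in control and 136 ± 61.7 CPM in cdKO (log2 fold change -0.55, SE 0.42).

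Of 7 genes of GABA breakdown and uptake 6 were tested and 0 were called, with 3 fold changes above and 3 below 0 and a median log2 fold change of -0.07, or 1 above and 5 below with a median of -0.24 without replicate 5 of both groups. The extremes were Slc6a13, a GABA transporter, at 0.78 (SE 1.05) and Aldh5a1, which oxidises the product of GABA breakdown, at -0.40 (SE 0.31). The 8 genes of glycine metabolism and transport were all tested and 0 were called, with a median of -0.02, or 0.07 without replicate 5 of both groups. Amt, a part of the glycine cleavage system, was at 1.16 ± 0.518 CPM in control and 2.10 ± 0.851 CPM in cdKO (log2 fold change 0.85, SE 0.44, edgeR adjusted p = 0.938). Shmt1, which interconverts serine and glycine, had a log2 fold change of -0.48 (SE 0.38).

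The transcription factors that select an inhibitory or an excitatory fate were mostly low or not detected. Of 12 inhibitory selectors 6 passed the filter, 0 were called and all 6 fold changes were above 0, with a median log2 fold change of 0.44. Without replicate 5 of both groups 3 of the 6 were above 0, and the median was -0.03. Gata3, which with Gata2 and Tal1 marks the inhibitory V2b interneurons, was at 1.81 ± 1.23 CPM in control and 3.22 ± 1.97 CPM in cdKO (SD, n = 5 each; log2 fold change 0.83, SE 0.56, edgeR adjusted p = 0.982). Of 12 excitatory selectors 6 passed, 0 were called and 5 fold changes were above 0, with a median of 0.39, or 4 above 0 and a median of 0.31 without replicate 5 of both groups. Sim1, a mark of V3 interneurons, was at 2.67 ± 2.08 and 2.54 ± 1.28 CPM.

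Markers of other cell types were measured beside the 8 members. The 3 V2b markers summed to 1.31 to 13.4 CPM in control and 4.72 to 18.8 CPM in cdKO. All 3 had fold changes above 0 with a median log2 fold change of 0.65. Without replicate 5 of both groups 1 was above and 2 were below 0, with a median of -0.09. The 6 dorsal interneuron markers, of which 1 passed the filter, summed to 0.115 to 1.02 and 0.279 to 0.512 CPM, and neither V1 marker nor V0 marker passed. Markers of erythroid cells summed to 0.842 to 14.3 CPM in control and 2.23 to 55.3 CPM in cdKO. The 4 that were tested had a median log2 fold change of 1.99, or 0.62 without replicate 5 of both groups. The 5 mesenchyme markers all passed the filter and summed to 5.42 to 17.7 CPM in control and 9.41 to 20.3 CPM in cdKO. All 5 had fold changes above 0, with a median log2 fold change of 0.69. Of these, 2 had an unadjusted p under 0.05 by edgeR, where 4.99% of all genes did. Without replicate 5 of both groups 4 were above and 1 was below 0, with a median of 0.38. The part of these cells in the levels of the 8 members was not tested.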

How the data were processed

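RNA-seq of FACS-sorted YFP-positive spinal cord cells of 5 control and 5 cdKO samples was re-analysed. The authors deposited whole-number counts per exon bin, unstranded and not normalised. The submitters' processing notes name bcl2fastq 2.17, Trimmomatic 0.36, STAR 2.5.2b, Subread 1.5.2, DESeq2 and GRCm38, for reads of 150 bases in pairs. Bins were assigned to genes of GENCODE M21 with bedtools 2.31.1 (49384 of 49644 identifiers matched) and summed per gene. A total of 3974 bins, with 1.17% of counts, fell to no single gene and were left out. Sums per gene passed filterByExpr at a minimum count of 10, received TMM factors and went into the quasi-likelihood test of edgeR 4.0.16 (R 4.3.3), with Benjamini-Hochberg adjustment over 17840 genes. Single values were tested by exact two-sided permutation over samples, on log2(CPM + 0.5) for levels and on percentages for exon shares. The scripts were tested on simulated data.

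All 8 members are named, with values for genes among the 2 highest and 2 lowest fold changes of each list and the 3 genes most like each tested member. The members and lists were chosen with earlier results of these data known. Sequences came from RefSeq (GRCm38.p6, 13 windows for all 8 members) and GENCODE M21. The labels give no batch. No 2 samples were duplicates. Alternatives included DESeq2 1.42.0, limma 3.58.1 voom, other scalings, filters and bin choices, a replicate block and leaving out samples. An extreme gene of the pathway lists is not reported here.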

Additional observations from a re-analysis of the deposited data

Results flagged for a closer look

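A single sample lay far from the rest of its group in 6 of 32 groups of values examined, and chance alone flags about 1 in 20. For Gad2, control 1 was at 1.25 CPM where the other controls were at 0 to 0.353 CPM, and cdKO 5 was at 3.07 CPM where the other cdKO samples were at 0.250 to 1.01 CPM. For Slc32a1, cdKO 5 was at 0.354 CPM and the other cdKO samples at 0 to 0.0635 CPM. In this sample 198569 exon bins held at least 1 count, and in its group otherwise 254982 to 264487. The embryonic exon of Gad1 held 27.3% of Gad1 counts in control 2, which were 3 of 11 counts, and 0.952 to 3.85% in the other controls with counts. The exons of the most upstream Slc6a9 starts held 0% of its counts in control 5 and 4.87 to 6.14% in the other controls.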

How the results depend on the processing

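No member and no gene of the 6 transmitter lists was called under any alternative run. Over all genes, 0 were called, against 20 with the DESeq2 Wald test, 1 when only library size was scaled, 1 when low genes were kept, 13 with sample weights in limma-voom, 3 without those weights, 4 without both replicates 5 (chosen after seeing the data), and 0 to 4 with 1 sample left out (4 without control 5 and 1 without cdKO 5). The exact permutation p, unadjusted, was under 0.05 for 0 members, and for 0 to 1 with 1 sample left out. Of the 3 exon shares 0 had an unadjusted exact p under 0.05, 1 with the next exons as denominator, 1 without both replicates 5 and 0 to 1 with 1 sample left out.

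Gad2 stayed above 0 in all 21 alternatives (log2 fold change 0.41 to 2.67, adjusted p 0.590 to 1.0 by edgeR, DESeq2 or limma). The sign turned for Slc17a8 (-0.25) and Gad1 (-0.10) with library size only, for Slc17a8 (-0.022) with no filter, for Slc17a7 (-0.0023) and Slc17a8 (-0.36) with limma-voom, for Slc17a6 (-1.05), Slc17a7 (-0.34), Slc17a8 (-0.90), Gad1 (-0.12) and Slc6a9 (0.051) with sample weights, and for Slc17a6 (-0.22), Slc17a8 (-0.38) and Gad1 (-0.24) without both replicates 5. With 1 sample left out the values ran from -0.65 to 0.31 for Slc17a8 and from -0.23 to 0.86 for Gad1. What caused these turns was not tested.

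A replicate block, fitted from the shared numbers, gave 0 genes called, and the log2 fold change of Slc17a8 was -0.26. Whether the numbers pair the samples is not known, since the labels do not say so. Same-numbered samples deviated together with a correlation of -0.24 to 0.29 (mean 0.09, and -0.01 for differently numbered ones), which cannot decide it. Low counts limit all members but Slc6a9, and a pseudocount of 0.5 CPM holds back the differences of the lowest.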
